A study of Mus musculus with 69 samples.

Results

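Nuclear receptors other than those of the circadian clock were followed in whole kidney of NZB/W F1 mice, a strain that develops lupus nephritis spontaneously. The members were taken from a list of 34 gene symbols covering the retinoid, thyroid hormone, peroxisome proliferator-activated, estrogen-related, steroid, bile acid, oxysterol, xenobiotic, HNF4, COUP-TF and NR4A receptors, and a symbol was kept when its reads over the 65 original libraries reached a total of 100. All 34 passed, out of 24523 symbols with counts and 17587 symbols that reached the same total. The receptors that belong to the clock loop itself and the glucocorticoid and mineralocorticoid receptors were not members.

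The series asked how lupus nephritis alters daily gene expression in the kidney and whether remission reverses it. Young mice were 12 weeks old (30 libraries), nephritic mice were 30 to 45 weeks old and were taken a few weeks after fixed proteinuria appeared (27 libraries), and remission mice had been nephritic at 36 to 50 weeks and were treated with cyclophosphamide, CTLA4Ig and anti-CD40L (8 libraries). Young and nephritic mice were collected at 6 zeitgeber times (ZT, hours after lights on), with 7, 4, 4, 7, 4 and 4 young and 7, 4, 4, 6, 3 and 3 nephritic mice at ZT0, ZT4, ZT8, ZT12, ZT16 and ZT20, and remission mice at ZT0 and ZT12, with 4 mice each. The labels give no transgene or deletion in any group. Age and disease cannot be told apart in these groups, since no untreated aged mouse without nephritis was analysed here.

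Nuclear receptors are transcription factors that bind short DNA elements, mostly as homodimers or as heterodimers with a retinoid X receptor, and many of them are switched by a small lipid-soluble ligand. In kidney tubules HNF4A, the estrogen-related receptors and the peroxisome proliferator-activated receptors are known for driving transport, mitochondrial oxidation and fatty acid use, and the farnesoid X receptor NR1H4 for bile acid and water handling. The NR4A receptors need no known ligand and are transcribed as immediate early genes.

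Total counts ranged from 25257530 to 35744843 in young, from 26596500 to 48075977 in nephritic and from 13311278 to 21849912 in remission libraries. The kidney was recognisable in every group, and the summed level of 10 proximal tubule markers was 14578 to 22897 CPM (the reads of a gene relative to all reads of its library, after scaling by the trimmed mean of M values, TMM) in young, 2888 to 17781 in nephritic and 11054 to 17360 in remission mice. RNA of neighbouring organs was present in some libraries. The liver gene Alb made up 0.812% to 0.968% of all counts in the young mice ZT8LU, ZT16RU and ZT16LL and 0.362% in the nephritic mouse RX10LU, and 9 libraries (8 young and again RX10LU) held more than 100 counts of the adrenal gene Cyp11b1. Of 4 libraries made again in the sequencing run of the remission mice, that of RX11RU lay nearer to the mouse RX11LU (0.0977 on the log2 scale) than to the original library of RX11RU (0.252), and the remission mouse s9, labelled ZT12, lay nearest to s8, labelled ZT0. Several results that rest on the liver and adrenal libraries and on the repeat of RX11RU are given with and without them. The closest pair of all libraries was RX12LU and RX11RL, both nephritic at ZT4, at 0.0506 on the log2 scale. The original and the repeat of ZT12RU lay 0.0875 apart. Whether RX12LU and RX11RL are separate mice was not tested, and the spread at nephritic ZT4 may be understated. In whole tissue, fewer cells of a type and less RNA per cell cannot be told apart.

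Per kilobase of exon, the members spanned a wide range in young kidney. Hnf4a, which keeps tubule and liver epithelium differentiated, was the most abundant, with a median of 189.9 CPM per kb over 30 mice (149.7 to 243.7). It was followed by Nr2f6, a COUP-TF family repressor, with 77.3, Esrra, the estrogen-related receptor that runs mitochondrial genes, with 54.3, and Nr1h4 with 44.5 CPM per kb. Each of these ranks concerns medians and neighbouring ranges overlap further down the order. The oxysterol receptor Nr1h2 was at 34.8 and the general partner Rxra at 31.5 CPM per kb. At the other end stood Nr1i3 (0.188), Nr4a3 (0.161), Nr5a2 (0.0948) and Rorb (0.0144 CPM per kb), so values of these 4 rest on few reads. For 8 members some exon bases also belong to another counted gene on the opposite strand, and whether the counting used strand is not given in the sources used here. The shared part was 74.9% of the exon bases of Nr1i3 (with Tomm40l), 54.4% of Nr2f6 (with Ocel1), 34.1% of Rarb (with Top2b), 30.7% of Nr2c2 (with Mrps25) and 5.70% of Thra (with the clock gene Nr1d1), and their values are uncertain to that extent.

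The first comparison asked whether the receptors differ in level between nephritic and young kidney, with time point and RNASeq set as covariates (edgeR quasi-likelihood F test, p-values adjusted over all genes by Benjamini and Hochberg, threshold 0.05). Most members that passed were lower in nephritic mice. Of the 34 members, 21 fell, among 17521 tested genes of which 33.9% fell, and 3 rose, where 28.1% of all genes rose. The median log2 change of the members was −0.23, beside −0.03 over all genes. The receptors that rose were Pparg, Rara and Nr2f1.

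**Figure D1:**
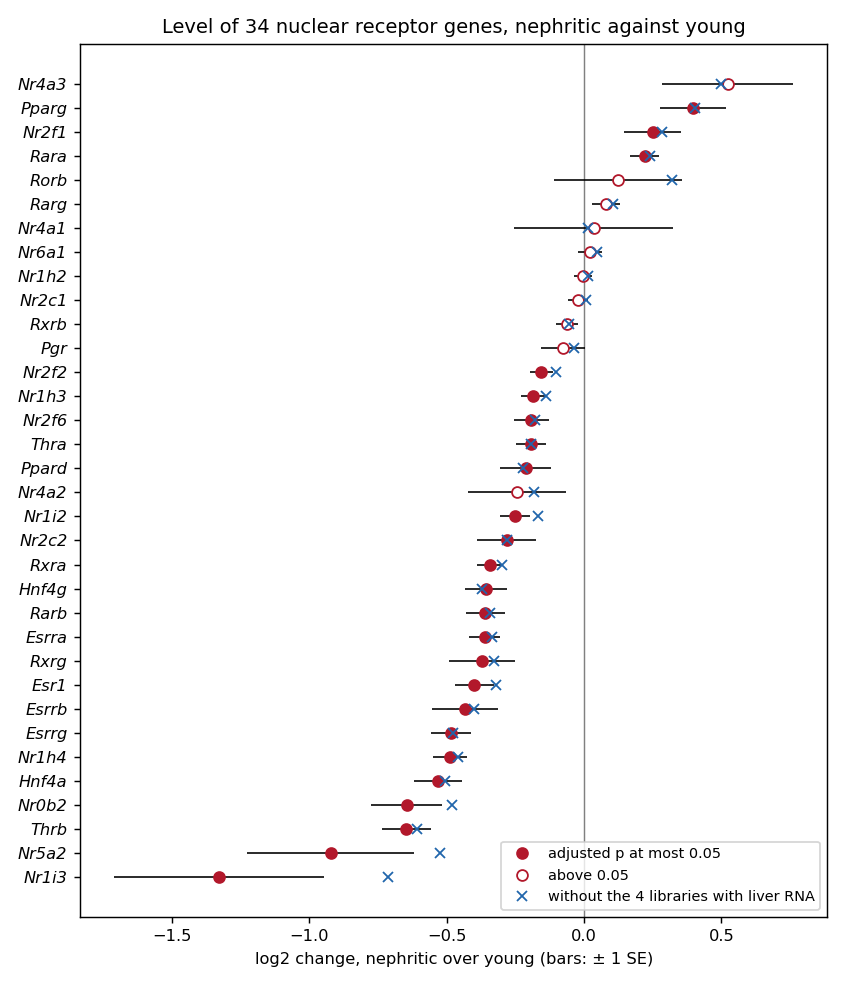
Log2 change of each of the 34 members, nephritic over young, on the horizontal axis, with bars of 1 standard error. Filled circles passed an adjusted p of 0.05 and crosses give the change without the 4 libraries with liver RNA. Most circles sit left of 0, and the crosses of Nr1i3 and Nr5a2 lie far to the right of their circles.

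Both HNF4 receptors fell, as did 2 of the 3 retinoid X receptors. Hnf4a was at 723, 917 and 1176 CPM in the lowest, median and highest young mouse and at 233, 632 and 1004 CPM in nephritic mice. The ranges overlapped, but 18 of 27 nephritic mice lay below the lowest young mouse. Hnf4a fell by 0.53 (SE 0.09) on the log2 scale (adjusted p = 7e-07) and was lower at 6 of 6 time points. The related Hnf4g, at 6.84, 10.2 and 13.5 CPM in young and 4.62, 8.25 and 12.0 CPM in nephritic mice, fell by 0.36 (SE 0.08, adjusted p = 5.9e-05). Rxra, a retinoid X receptor with which the thyroid hormone, retinoic acid and PPAR receptors among others pair, was at 155, 172 and 213 CPM in young and at 80.4, 139 and 174 CPM in nephritic mice. Again 18 of 27 nephritic mice were below every young mouse, and Rxra fell by 0.34 (SE 0.05, adjusted p = 2.2e-08). The other retinoid X receptors differed from it: the scarce Rxrg, with 2.03, 3.38 and 6.10 CPM in young and 0.834, 3.25 and 5.07 CPM in nephritic mice, fell by 0.37 (SE 0.12, adjusted p = 0.0062), with close medians and 9 of 27 nephritic mice below the young range, and Rxrb did not pass (−0.06, adjusted p = 0.17).

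Nr1h4, the farnesoid X receptor, had the smallest p of all members. Its lowest, median and highest values were 69.6, 103 and 147 CPM in young mice and 35.7, 71.1 and 109 CPM in nephritic mice. The ranges overlapped, with 25 of 27 nephritic mice under the young median, and it fell by 0.49 (SE 0.06, adjusted p = 2.8e-09). The oxysterol receptor Nr1h3, which turns on cholesterol export genes, fell by 0.18 (SE 0.05, adjusted p = 0.00046), while its sister Nr1h2 was at −0.0033 (SE 0.03, adjusted p = 0.94).

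The 3 estrogen-related receptors, which act on mitochondrial genes without a hormone, all fell. Esrra was at 182, 238 and 302 CPM in young and 133, 189 and 275 CPM in nephritic mice. Its ranges overlapped, and 10 of 27 nephritic mice lay below the young range (change −0.36, SE 0.06, adjusted p = 2.4e-07). Esrrg was at 48.0, 79.5 and 110 CPM in young and 26.4, 63.9 and 76.3 CPM in nephritic mice. Here 27 of 27 nephritic mice lay below the young median (change −0.48, SE 0.07, adjusted p = 8.4e-08). Esrrb, at 40.4, 50.5 and 84.7 CPM in young and 15.7, 40.99 and 79.4 CPM in nephritic mice, overlapped more widely and fell by 0.43 (SE 0.12, adjusted p = 0.0015). The estrogen receptor Esr1 was at 12.9, 15.9 and 22.5 CPM in young and 6.52, 13.3 and 17.9 CPM in nephritic mice. It fell by 0.40 (SE 0.07, adjusted p = 3.6e-06), with 12 of 27 nephritic mice under the young range, whereas the progesterone receptor Pgr did not pass (−0.08, adjusted p = 0.42).

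Thrb, the thyroid hormone receptor beta, was at 35.4, 49.8 and 69.1 CPM in young and 14.8, 33.0 and 46.6 CPM in nephritic mice. All 27 nephritic mice were below the young median and 17 were below the young range, and it fell by 0.65 (SE 0.09, adjusted p = 1.9e-08). Thra fell less, by 0.19 (SE 0.05, adjusted p = 0.0017). Among the retinoic acid receptors the directions were opposite. Rara rose from a median of 27.2 CPM (21.9 to 38.1) to 31.4 CPM (26.4 to 50.1), a change of 0.22 (SE 0.05, adjusted p = 0.00031), with 2 of 27 nephritic mice below the young median. Rarb fell by 0.36 (SE 0.07, adjusted p = 1.7e-05), and Rarg did not pass (0.08, adjusted p = 0.16).

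Pparg, the receptor that directs fat storage in adipocytes, was at 1.43, 4.07 and 8.87 CPM in young and 1.45, 5.53 and 12.1 CPM in nephritic mice. The ranges overlapped almost fully, but its mean was higher at 6 of 6 time points, and it rose by 0.40 (SE 0.12, adjusted p = 0.0036). The summed level of 7 adipocyte markers, which include the PPAR-gamma targets Fabp4 and Adipoq, was 66.2 to 959 CPM in young and 88.0 to 762 CPM in nephritic mice, and 0 of the 7 genes passed between the groups in edgeR (0 at an unadjusted p of 0.05). Ppard, which acts on fatty acid oxidation, changed by −0.21 (SE 0.09) with an adjusted p of 0.045, and in 43 of 57 fits without 1 mouse it no longer passed. The orphan receptors Nr2f1 (0.25, adjusted p = 0.036), Nr2f2 (−0.15, adjusted p = 0.00091), Nr2f6 (−0.19, adjusted p = 0.0068) and Nr2c2 (−0.28, adjusted p = 0.019) passed as well. Nr2c1, Nr6a1 and Rorb did not pass (adjusted p = 0.59 to 0.67).

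**Figure D2:**
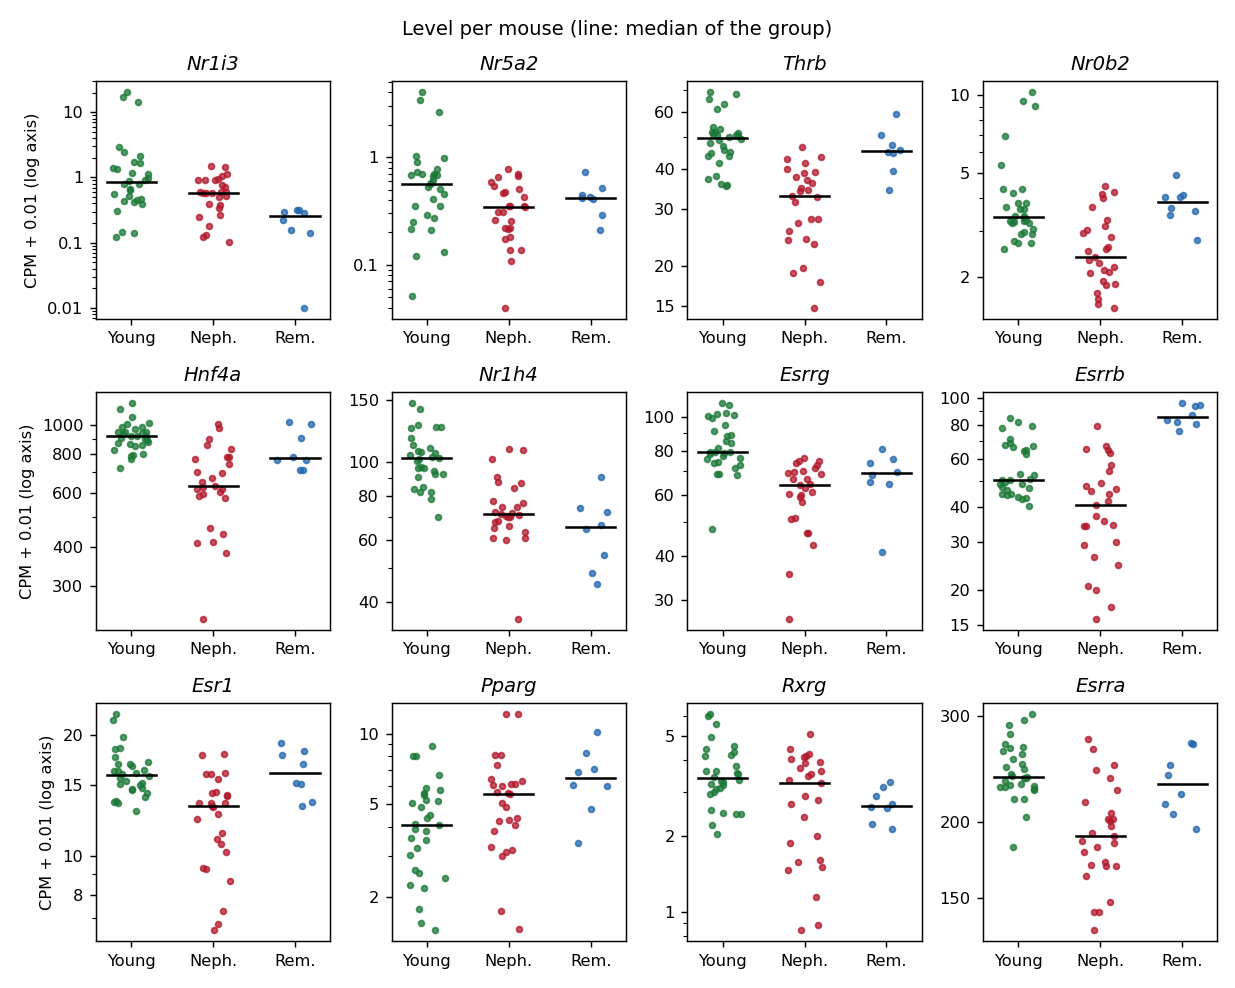
Level of the 12 members with the largest change, in CPM plus 0.01 on a log axis, with 1 point per mouse and a line at the median of the young, nephritic (Neph.) and remission (Rem.) group. Nephritic mice spread further down than young mice for Thrb and Hnf4a, and the 8 remission mice of Esrrb sit between 75.8 and 95.9 CPM.

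Receptors of bile acid and drug metabolism that liver expresses strongly had the largest fitted changes. These were smaller without the 4 libraries with liver RNA. Nr1i3, the constitutive androstane receptor, was at 0.112, 0.828 and 20.6 CPM in young and 0.0941, 0.578 and 1.51 CPM in nephritic mice and fell by 1.33 (SE 0.38, adjusted p = 0.0023). The 3 young libraries with liver RNA held 14.4 to 20.6 CPM of it, above the 2.90 CPM of the highest of the other 27 young libraries. Without the 4 liver libraries the change was −0.71 (SE 0.27, adjusted p = 0.019). Nr5a2, known as LRH-1 and a driver of bile acid synthesis genes, was at 0.0408, 0.559 and 4.04 CPM in young and 0.0298, 0.334 and 0.772 CPM in nephritic mice, and its change went from −0.92 (SE 0.30, adjusted p = 0.0073) to −0.53 (SE 0.23, adjusted p = 0.047) without those libraries. Nr0b2, the small heterodimer partner that bile acid signalling induces, was at 2.54, 3.38 and 10.2 CPM in young and 1.51, 2.38 and 4.47 CPM in nephritic mice. Its change of −0.65 (SE 0.13, adjusted p = 2.7e-05) became −0.48 (SE 0.11, adjusted p = 0.00026), and 15 of 27 nephritic mice lay below the lowest young mouse. Nr1i2, the pregnane X receptor, went from −0.25 (adjusted p = 9.2e-05) to −0.17 (adjusted p = 0.0042) and Esr1 from −0.40 to −0.32 (adjusted p = 0.00017). In young mice the 3 liver libraries were the highest of all 30 for these 5 members.

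**Figure D3:**
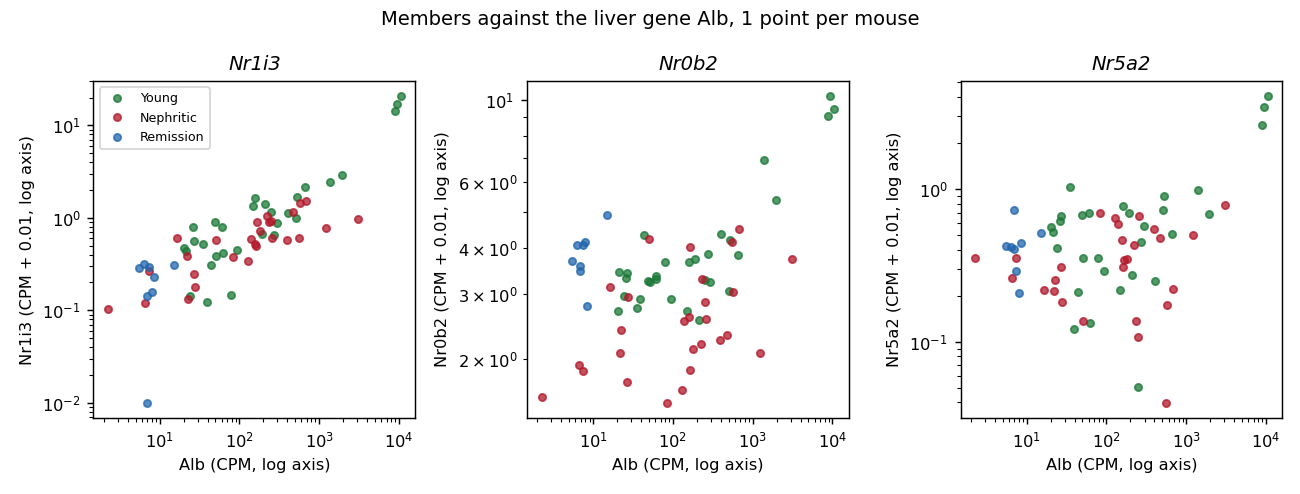
Level of Nr1i3, Nr0b2 and Nr5a2 (vertical log axis, CPM plus 0.01) against the liver gene Alb (horizontal log axis, CPM), with 1 point per mouse coloured by group. The 3 young mice at the upper right hold 14.4 to 20.6 CPM of Nr1i3, and the 8 remission mice lie at the left with 5.51 to 15.1 CPM of Alb.

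The mice came in 2 RNASeq sets, Set 1 with 6 young and 5 nephritic mice of ZT0 and ZT12 and Set 2 with 24 young and 22 nephritic mice. The change was −1.41 and −0.45 for Thrb, −1.17 and −0.36 for Hnf4a, −1.20 and −0.30 for Esrrg, −0.74 and −0.40 for Nr1h4, −0.49 and −0.28 for Rxra, 0.87 and 0.32 for Pparg and 0.63 and 0.16 for Rara in Set 1 and Set 2, all past the threshold. Rxrb passed in both in opposite directions (0.24, adjusted p = 0.0072, and −0.096, adjusted p = 0.032). Members that passed in Set 1 but not in Set 2 were Nr2c2 (−1.22 and −0.05), Nr1h2 (0.31 and −0.04), Ppard (−0.54 and −0.11), Thra (−0.35 and −0.12), Nr2f2 (−0.36 and −0.08), Nr4a1 and Nr4a2. Those that passed in Set 2 but not in Set 1 were Nr1i3 (−1.05 and −1.36 in Set 1 and Set 2), Nr5a2 (−0.95 and −0.88), Rxrg (−0.66 and −0.29), Nr2f1 (0.40 and 0.25), Nr2f6 (0.16 and −0.24), Nr1i2 (−0.05 and −0.27) and Nr1h3 (−0.06 and −0.18). Nr0b2 passed in both (−0.59 and −0.62). Within Set 2 alone 18 members fell and 3 rose, and within Set 1 alone 17 fell and 4 rose. Over all genes 4844 fell and 4842 rose of 17339 in Set 2, and 4384 fell and 4871 rose of 15654 in Set 1.

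Cell type markers moved beside these levels, and their part in the receptor changes was not tested. All 10 proximal tubule markers were lower in nephritic mice (median log2 change −0.77), as were 3 of 7 markers of the thick ascending limb and distal tubule (1 higher, median −0.31), 1 of 6 of the collecting duct (1 higher, −0.04) and 4 of 6 of endothelium (−0.30). All 8 macrophage markers (median 2.45), all 8 lymphocyte and plasma cell markers (2.85), all 6 markers of injured tubule (3.39), 4 of 7 fibroblast (0.48) and 3 of 5 podocyte markers (0.29) were higher, with the rest of those lists not passing. Of 7 adrenal cortex genes 3 were lower (−2.18) and of 8 liver genes 5 were lower (−1.62). Their median sums were close, with 8.14 and 7.18 CPM for adrenal cortex and 204 and 206 CPM for liver in young and nephritic mice.

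The spread among nephritic mice was related to injury by correlating each member with Lcn2, which injured tubules secrete, over the 27 nephritic mice (log2 CPM, permutation test with 100000 resamples, two-sided, 34 relations adjusted together). Lcn2 ran from 2.28 to 9.47 on the log2 scale with no gap between neighbouring mice over 0.81. Of the members, 15 declined with Lcn2 and 4 rose. In a limma fit of all genes on Lcn2, added for comparison, 23.4% of 16871 genes declined and 24.2% rose past an adjusted p of 0.05. By that fit 16 members declined and 3 rose. Of the 4 members that rose by correlation, Nr2c1 did not pass in the limma fit (adjusted p = 0.089). Rxra was related most closely, with Pearson's r = −0.86 and Spearman's rho = −0.92. Esrra (r = −0.84, rho = −0.83), Hnf4a (r = −0.82, rho = −0.89), Esrrb (r = −0.81, rho = −0.82) and Thrb (r = −0.79, rho = −0.80) followed. All 5 had a permutation p of 1e-05 for both measures, the smallest these resamples can give (adjusted p = 6.8e-05). The members that rose with Lcn2 were Rara (r = 0.63, rho = 0.63, adjusted p = 0.0016 and 0.0021), Nr5a2 (r = 0.62, rho = 0.61, adjusted p = 0.0016 and 0.0026), Rarg (r = 0.48, rho = 0.46, permutation p = 0.011 and 0.016) and Nr2c1 (r = 0.47, rho = 0.48, permutation p = 0.013 and 0.012). Hnf4g, unlike Hnf4a, showed no relation past the threshold (r = −0.04, adjusted p = 0.90). Without RX90 and RX11LL, the mice farthest from the Lcn2 median, r was −0.84 for Rxra, −0.85 for Esrra, −0.81 for Hnf4a, −0.83 for Esrrb, −0.76 for Thrb, 0.57 for Rara, 0.64 for Nr5a2 and 0.48 for Nr2c1, whose rho no longer passed (0.42, adjusted p = 0.08), as did neither measure for Rarg (r = 0.37, adjusted p = 0.12). Within Set 2 (22 mice) r was −0.92 for Rxra, −0.86 for Hnf4a, −0.80 for Esrra, −0.72 for Esrrb, −0.73 for Thrb, 0.53 for Rara, 0.67 for Nr5a2, 0.58 for Rarg and 0.58 for Nr2c1, with the rho of Rara just short of the threshold (0.50, adjusted p = 0.0502). Set 1 held 5 nephritic mice, too few for a relation. On residuals after time point and set, r was −0.83 for Rxra, −0.86 for Esrra, −0.82 for Hnf4a, −0.84 for Esrrb, −0.86 for Thrb, 0.63 for Rara, 0.70 for Nr5a2 and 0.71 for Nr2c1. Rarg (r = 0.33, adjusted p = 0.13), Nr1h4, Nr1i2 and Nr1i3 did not pass there, and Nr2f2 and Nr4a2 did.

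Genes that act with or downstream of the receptors were counted by list, nephritic against young. Of 20 coregulators 10 fell and 3 rose (median −0.08), with Ppargc1b (−0.48) and Ppargc1a (−0.40), coactivators of the estrogen-related receptors, and the corepressor Nrip1 (−0.38) lower and Pprc1 (0.48) higher. All 12 targets of the estrogen-related receptors fell (median −0.41), led by the fatty acid dehydrogenase Acadm (−0.69), the mitochondrial deacetylase Sirt3 (−0.57) and the respiratory chain subunit Sdhb (−0.55). All 12 HNF4 targets of the tubule fell (median −0.70), among them the transthyretin gene Ttr (−1.02), the gluconeogenic Pck1 (−0.99) and the endocytic receptor Cubn (−0.86). This list shares 3 genes with the proximal tubule markers. Without the liver libraries both counts stayed at 12 of 12, and Ttr was at −0.64.

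Of 14 targets of the farnesoid X, pregnane X and constitutive androstane receptors 11 fell and 0 rose (median −0.61). The drug-metabolising Cyp3a11 (−2.53), Ces2a (−2.53) and Cyp3a25 (−2.36) and the bile salt export pump Abcb11 (−1.95) led it. Without the liver libraries again 11 fell, with Cyp3a11 at −1.93, Ces2a at −1.63, Cyp3a25 at −1.59 and Abcb11 at −1.12. Of 10 genes of thyroid hormone handling and response 7 fell and 3 rose (median −0.46). The activating deiodinases moved in opposite directions, with Dio1 at −0.98 and Dio2 at 1.35, the target Thrsp was at −1.41 (−1.09 without the liver libraries) and the corepressor Hr at 0.64.

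Of 16 genes of retinoid handling 5 rose and 5 fell (median −0.10). The retinoic acid synthesising enzyme Aldh1a2 (1.45) and the retinol uptake receptor Stra6 (1.17) rose, and Aldh1a3 (−0.82) and the plasma retinol carrier Rbp4 (−1.21) fell, though Rbp4 did not pass without the liver libraries (−0.53, adjusted p = 0.078). Of 10 oxysterol receptor targets, 1 of which is the member Nr1h3, 4 rose and 5 fell (median −0.12), with the lipid transfer genes Pltp (1.33) and Apoe (0.89) and the exporter Abcg1 (0.57) higher and the desaturase Scd1 (−0.70) lower. Of 12 targets of PPAR-delta and PPAR-gamma 3 rose and 4 fell (median −0.25). Angptl4 (0.91), an inhibitor of lipoprotein lipase, and the carrier Ucp2 (0.81) rose, and the lipase Lpl itself (−0.85) fell.

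The second comparison asked which members change over the day. In young mice 20 of 34 members passed the test over 6 time points, among 16521 genes of which 39.8% passed. In nephritic mice 11 of 34 passed, where 21.6% of 16872 genes did. The lists of genes tested differ, and a member past the threshold in 1 group only is not thereby shown to differ. Hnf4a, the most abundant member, passed in neither group (adjusted p = 0.81 and 0.78).

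Ppard had the smallest p in young mice (adjusted p = 1.2e-14). Its mean was 79.8 ± 10.4 CPM (SD, n = 7) at ZT0, 40.6 ± 3.06 at ZT4, 25.5 ± 1.92 at ZT8, 33.6 ± 2.25 at ZT12, 41.1 ± 1.18 at ZT16 and 81.9 ± 9.75 at ZT20 (n = 4 at all but ZT0 and ZT12). Every young mouse of ZT20 and ZT0 (66.8 to 97.4 CPM) was above every mouse of the other times (at most 44.6 CPM). In nephritic mice the means were 54.8 ± 16.5, 27.4 ± 1.27, 28.5 ± 7.99, 32.4 ± 6.51, 68.6 ± 25.2 and 51.7 ± 9.69 CPM in the same order (adjusted p = 0.0021). They spread far more at ZT0, from 30.7 to 73.9 CPM, and the mean was highest at ZT16.

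Thra followed in young mice (adjusted p = 8.1e-11) and fell from 80.3 ± 5.83 CPM at ZT0 through 75.1 ± 5.53 at ZT4 and 61.0 ± 5.58 at ZT8 to 47.8 ± 2.42 at ZT12 and 50.0 ± 2.56 at ZT16 before 69.4 ± 3.26 at ZT20. The nephritic means were 60.5 ± 12.9, 66.3 ± 5.26, 65.2 ± 4.94, 42.4 ± 3.01, 61.7 ± 8.66 and 48.4 ± 6.07 CPM (adjusted p = 0.0079). ZT12 was lowest in both groups, while ZT20 was high in young and low in nephritic mice. Thrb ran the other way in young mice (adjusted p = 3.9e-06), from 42.3 ± 7.38 CPM at ZT0 to 59.5 ± 7.95 at ZT12, and in nephritic mice it stayed between means of 26.8 ± 6.75 and 40.1 ± 3.40 CPM (adjusted p = 0.44).

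Esrrb stood out at ZT12 in young mice, at 75.1 ± 7.77 CPM beside 44.8 ± 3.13 at ZT8 and 48.9 ± 3.47 at ZT16 (adjusted p = 4e-06). In nephritic mice its means lay between 34.5 ± 11.7 and 49.0 ± 4.72 CPM, and the ZT12 mice alone spanned 17.4 to 79.4 CPM (adjusted p = 0.79). Nr1h4 peaked at ZT8 in young mice, with 125 ± 15.9 CPM beside 87.3 ± 11.8 at ZT0 and 87.1 ± 5.40 at ZT20 (adjusted p = 8.6e-05). Its nephritic mean was also highest at ZT8, 99.0 ± 11.5 CPM, and the test did not pass (adjusted p = 0.097).

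Pparg varied in both groups. In young mice it rose from 1.90 ± 0.493 CPM at ZT8 to 5.47 ± 1.93 at ZT12 and 5.96 ± 2.06 at ZT16 (adjusted p = 0.00012), and in nephritic mice from 2.66 ± 1.31 at ZT8 to 9.19 ± 2.57 at ZT16 (adjusted p = 0.014). The amplitude of a 24 h cosine on log2 CPM was 0.78 ± 0.14 (SE) and 0.71 ± 0.16. All 7 adipocyte markers varied over the day in both groups, and their summed median moved alongside, from 166 CPM at ZT8 to 448 at ZT12 and 496 at ZT16 in young and from 164 at ZT8 to 751 at ZT16 in nephritic mice. Their part in the Pparg pattern was not tested.

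The NR4A receptors, which are induced within minutes by calcium, cyclic AMP and stress, varied over the day in young mice. Their promoters are shown because they share a sequence feature. TGACG, one arm of the cyclic AMP response element, was sought on both strands of RefSeq promoter windows (GRCm38.p6, 250 bases before to 50 after a start). It occurred in 20.8% of all 32851 windows and in 14 of the 53 windows of members. The full element TGACGTCA occurred in 1.79% of all windows and among members in Nr6a1, with no match in these 3 windows. Capitals mark TGACG or its reverse complement CGTCA, written 5′ to 3′ on the strand of the gene, at chr15:101266596-101266895 (plus strand) for Nr4a1, chr2:57123954-57124253 (minus strand) for Nr4a2 and chr4:48045055-48045354 (plus strand) for Nr4a3.
Nr4a1: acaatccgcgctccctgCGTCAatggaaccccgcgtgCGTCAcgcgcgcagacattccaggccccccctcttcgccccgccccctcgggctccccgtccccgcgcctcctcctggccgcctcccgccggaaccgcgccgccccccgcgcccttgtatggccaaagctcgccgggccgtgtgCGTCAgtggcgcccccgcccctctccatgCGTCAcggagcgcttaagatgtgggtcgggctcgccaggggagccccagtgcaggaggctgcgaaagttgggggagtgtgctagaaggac
Nr4a2: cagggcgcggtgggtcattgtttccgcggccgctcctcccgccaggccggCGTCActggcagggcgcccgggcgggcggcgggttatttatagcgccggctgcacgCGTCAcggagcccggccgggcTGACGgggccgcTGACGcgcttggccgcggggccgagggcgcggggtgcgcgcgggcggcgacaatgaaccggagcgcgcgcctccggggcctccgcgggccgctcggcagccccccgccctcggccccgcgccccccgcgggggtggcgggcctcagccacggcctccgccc
Nr4a3: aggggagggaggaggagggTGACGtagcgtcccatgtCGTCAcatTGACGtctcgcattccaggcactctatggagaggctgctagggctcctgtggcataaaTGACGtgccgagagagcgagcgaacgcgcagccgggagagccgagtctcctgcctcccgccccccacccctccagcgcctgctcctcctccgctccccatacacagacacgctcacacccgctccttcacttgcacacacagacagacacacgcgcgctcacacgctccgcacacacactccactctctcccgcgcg
Each of the 3 windows held 4 copies, a number that 76 of all 32851 windows (0.231%) reached and that no window of the other members with one did. This number was chosen from these same 3 windows, so the share describes them and is no test.

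Nr4a1 in young mice was at 10.7 ± 4.01 CPM at ZT4 and 16.8 ± 8.59 at ZT8, with no mouse above 25.6, and at 111 ± 63.6 at ZT12 and 118 ± 66.7 at ZT16, where mice spanned 11.6 to 175 CPM (adjusted p = 0.00093). In nephritic mice it was already at 38.9 ± 21.9 CPM at ZT4, with a lowest mouse of 26.97, and at 104 ± 4.18 at ZT20 (adjusted p = 0.10). The cosine amplitude was 1.58 ± 0.30 in young and 0.74 ± 0.21 in nephritic mice. Nr4a2 ran from 1.44 ± 0.297 CPM at ZT4 to 7.96 ± 5.06 at ZT16 in young (adjusted p = 0.00037) and from 1.87 ± 0.413 at ZT4 to 5.44 ± 0.423 CPM at ZT20 in nephritic mice (adjusted p = 0.021). Nr4a3 ran from 0.282 ± 0.139 CPM at ZT8 to 2.86 ± 2.14 at ZT12 in young (adjusted p = 0.0019) and from 0.660 ± 0.146 at ZT8 to 2.94 ± 1.38 CPM at ZT12 in nephritic mice (adjusted p = 0.0023). Adrenal RNA lay in 7 libraries of ZT12, ZT16 and ZT20 and 1 of ZT0 among the young mice, and of young ZT16 only ZT16LU was free of it. Without them the young mice still varied over time for Nr4a1 (adjusted p = 0.021) and Nr4a2 (adjusted p = 0.015), the highest young mouse of Nr4a2 was at 8.39 CPM, and Nr4a3 did not pass (adjusted p = 0.071, highest mouse 4.27 CPM). At ZT4 and ZT8 every nephritic mouse held more Nr4a3 (0.554 CPM or more) than every young mouse (0.487 CPM or less).

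Over all time points none of the NR4A receptors passed in level, nephritic against young. Nr4a1 was at 5.96, 50.3 and 175 CPM in young and 14.3, 45.2 and 184 CPM in nephritic mice (change 0.04, SE 0.29, adjusted p = 0.92). Its direction depended on the mice: the change was −2.10 within Set 1 (adjusted p = 0.00018), 0.52 within Set 2 (adjusted p = 0.12) and −0.95 at ZT0 and ZT12 alone (adjusted p = 0.024). Nr4a2, at 1.06, 3.48 and 14.9 CPM in young and 1.20, 2.50 and 7.72 CPM in nephritic mice, changed by −0.24 (SE 0.18, adjusted p = 0.24). Nr4a3, at 0.165, 0.962 and 7.04 CPM in young and 0.554, 1.66 and 5.18 CPM in nephritic mice, changed by 0.52 (SE 0.24, adjusted p = 0.054), and by 0.77 (adjusted p = 0.0078) without the libraries with adrenal RNA. Of 14 other immediate early genes 6 rose and 1 fell (median 0.32), with Egr3 (2.47), Egr2 (2.39), Atf3 (1.69) and Fosl2 (0.83) leading.

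**Figure D4:**
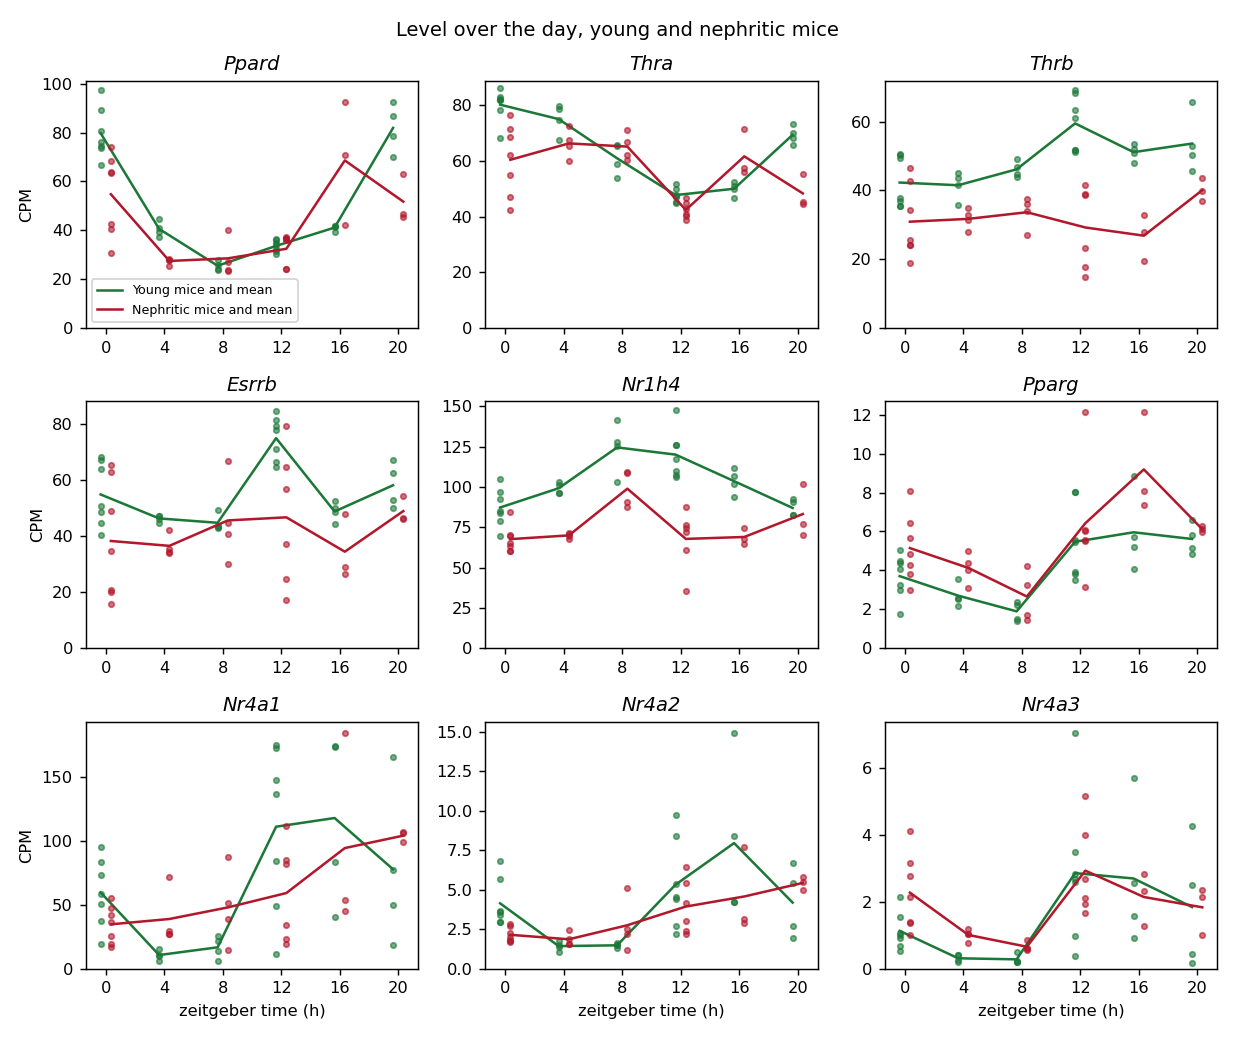
Level over zeitgeber time (hours, horizontal axis) in CPM (vertical axis) for 9 members, with 1 point per young or nephritic mouse and lines through the means. Young Ppard peaks at ZT20 and ZT0 with means of 81.9 and 79.8 CPM, nephritic Ppard at ZT16 with 68.6 CPM, and young Nr4a1 is lowest at ZT4 with 10.7 CPM.

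Whether the daily pattern itself differed between the groups was tested by the group by time point terms. Of 34 members 7 passed, where 6.27% of 17521 genes did. These were Ppard (adjusted p = 0.0035), Thra (0.0047), Nr1i3 (0.029), Pgr (0.029), Rxrb (0.034), Nr0b2 (0.043) and Nr4a1 (0.048). Pgr in young mice was lowest at ZT8 (1.29 ± 0.172 CPM) and highest at ZT12 (2.10 ± 0.328), and in nephritic mice highest at ZT4 (2.07 ± 0.0717) and lowest at ZT16 (1.31 ± 0.430). Rxrb was at 87.4 ± 10.5 CPM at ZT4 in young and 67.8 ± 6.77 in nephritic mice, whose other low time was ZT20 (68.8 ± 1.63, beside 78.3 ± 9.72 in young mice). In nephritic mice Rxrb alternated between about these levels and 82.2 to 89.3 CPM at the remaining times (adjusted p = 0.0021 over time points).

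Nr1i3 and Nr0b2 followed the liver libraries of ZT8 and ZT16. The Nr1i3 means were 6.18 ± 9.62 CPM at ZT8 and 8.59 ± 8.37 at ZT16 in young mice, beside 0.390 to 1.18 at the other times. Nr0b2 reached 7.28 ± 3.23 CPM at ZT16 beside 3.07 ± 0.382 at ZT20. Without the 4 liver libraries the daily pattern differed for 2 members, Ppard (adjusted p = 0.026) and Thra (0.039), and 14 rather than 20 members passed over time in young mice. Calls fell over all genes too, to 385 of 17436 for the pattern, beside 1099 of 17521 with every library. Over time in young mice they fell to 5114 of 16365, beside 6583 of 16521. Without the 9 adrenal libraries 2 other members passed for the pattern, Nr4a1 (adjusted p = 0.045) and Rxrb (0.042), Ppard was at 0.052 and Thra at 0.058, and 13 members passed over time in young mice. Of all genes 726 of 17323 passed for the pattern there and 3921 of 16079 over time in young mice. Among the young ZT16 mice only ZT16LU remained without the adrenal libraries, and only ZT16LU and ZT160 without the liver libraries. What the smaller number of mice did to these calls was not tested. A comparison of 24 h cosine terms in place of separate time points passed for 0 members in edgeR, and for 121 of 17521 genes.

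The third comparison asked whether levels in remission differ from those of nephritic and of young mice, over the 14 young, 13 nephritic and 8 remission mice of ZT0 and ZT12 in 1 fit. Both contrasts share the remission mice and the first shares the nephritic mice with the comparison above, so their values are given side by side. Against nephritic mice 9 of 34 members rose (17% of 16841 genes did) and 4 fell (20.5% of genes did), with a median change of 0.20 beside −0.02 over all genes. Against young mice 5 members rose (21.2% of genes) and 8 fell (20.4% of genes), with a median of −0.14 beside −0.0026 over all genes. Sequencing run and remission cannot be told apart, because all 8 remission libraries came from a separate run. With the run as a covariate, estimated from 4 mice sequenced in both runs, 6 members rose and 2 fell against nephritic mice. The 2 that fell were Nr6a1 and Rara (−0.46, adjusted p = 0.0084, and −0.52, adjusted p = 0.0068, without the repeat of RX11RU). Rara was not called against nephritic mice without the covariate. Against young mice 0 rose and 4 fell with the covariate. Of 16941 genes 1588 rose and 2413 fell against nephritic mice, and 1166 rose and 1176 fell against young mice. That fit counts the 4 mice as separate samples, and with mouse as a block in limma 9 members rose and 4 fell, and 0 rose and 5 fell. Over all genes 2170 rose and 2486 fell, and 1750 rose and 1779 fell, with that block. Marker levels moved in these contrasts as well, and their part in the receptor changes was not tested. Against nephritic mice all 6 endothelial markers (median 0.81), 3 of 7 of the thick ascending limb and distal tubule (0.89) and 3 of 10 of the proximal tubule (0.38, with 1 lower) were higher, and 5 of 6 markers of injured tubule (−1.94), 3 of 7 of fibroblasts (−0.66) and all 8 liver (−5.02) and 7 adrenal genes (−5.89) were lower. Only 1 nephritic library, RX10LU, held adrenal RNA. Median adrenal sums were close, with 7.02 and 7.44 CPM in nephritic and 7.90 and 5.65 CPM in remission mice at ZT0 and ZT12. Against young mice 5 of 10 proximal tubule markers (−0.66) and all 8 liver (−4.81) and 7 adrenal genes (−6.13) were lower. All 8 macrophage (2.13), all 8 lymphocyte and plasma cell (3.46) and 4 of 6 injured tubule markers (1.79) were higher. Median adrenal sums in young mice were 7.28 and 9.10 CPM at ZT0 and ZT12. Without the libraries with adrenal RNA 5 members were higher and 7 lower than in young mice, beside 3421 and 3286 of 16620 genes.

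Esrrb was at 75.8, 85.0 and 95.9 CPM in the lowest, median and highest remission mouse, at 15.7, 37.3 and 79.4 CPM in nephritic and at 40.4, 66.9 and 84.7 CPM in young mice of these times. Of the remission mice 7 of 8 lay above the highest nephritic mouse. The change was 1.04 (SE 0.24, adjusted p = 0.0009) against nephritic mice and 0.42 (SE 0.25, adjusted p = 0.18) against young mice. With the run as a covariate these were 1.21 (SE 0.34, adjusted p = 0.01) and 0.55 (adjusted p = 0.28). Repeat libraries of the 3 mice other than RX11RU held 0.10 to 0.16 more Esrrb on the log2 scale than the originals, in 3 of 3.

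Thra was at 66.1, 106 and 113 CPM in remission, 38.9, 46.8 and 76.5 CPM in nephritic and 45.05, 59.9 and 86.4 CPM in young mice, so that 5 of 8 remission mice were above every other mouse. It rose by 0.88 (SE 0.10, adjusted p = 1.7e-08) against nephritic and 0.59 (SE 0.10, adjusted p = 1.4e-05) against young mice. In the 3 mice other than RX11RU that were sequenced in both runs, the library of the remission run held 0.24 to 0.31 more Thra on the log2 scale than the original. With the run as a covariate Thra was at 0.51 (SE 0.14, adjusted p = 0.011) and 0.23 (SE 0.14, adjusted p = 0.31). Without the repeat of RX11RU that fit gave 0.75 (SE 0.16, adjusted p = 0.0013) and 0.42 (SE 0.15, adjusted p = 0.064). Thrb, at 34.4, 45.4 and 58.9 CPM in remission beside 14.8, 25.5 and 46.6 CPM in nephritic and 35.4, 51.0 and 69.1 CPM in young mice, rose by 0.58 (SE 0.18, adjusted p = 0.011) against nephritic mice, and its change against young mice was −0.17 (SE 0.19, adjusted p = 0.51).

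Nr6a1, the germ cell nuclear factor, was the lowest in remission of all 3 groups, with 4.89, 6.35 and 7.05 CPM beside 8.50, 10.4 and 12.2 CPM in nephritic and 7.53, 9.20 and 10.6 CPM in young mice. All 8 remission mice lay below every nephritic and every young mouse. It fell by 0.76 (SE 0.09, adjusted p = 3.9e-08) and by 0.60 (SE 0.09, adjusted p = 1.6e-06), and by 0.73 and 0.57 with the run as a covariate (adjusted p = 4e-05 and 0.00065). Outside RX11RU the repeat libraries held 0.03 to 0.16 more Nr6a1 on the log2 scale than the originals, in 3 of 3 mice.

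Nr1h3 was at 65.3, 74.1 and 77.9 CPM in remission beside 40.5, 56.2 and 68.5 CPM in nephritic and 57.4, 62.1 and 67.2 CPM in young mice. It rose by 0.41 (SE 0.08, adjusted p = 0.00015) against nephritic and by 0.25 (SE 0.08, adjusted p = 0.011) against young mice, and with the run as a covariate by 0.43 (adjusted p = 0.0041) against nephritic mice, while against young mice it no longer passed (0.24, adjusted p = 0.12). Outside RX11RU the repeat libraries held 0.08 to 0.15 more Nr1h3 on the log2 scale than the originals, in 3 of 3 mice. Nr0b2 (0.52), Esr1 (0.43), Rarb (0.34), Esrra (0.29) and Nr2f6 (0.25) were also higher than in nephritic mice, and Nr1i2 (−0.34) was lower. With the run as a covariate Nr0b2 (0.73) and Esrra (0.56) passed, and Esr1 (0.44, adjusted p = 0.064), Rarb (0.37, adjusted p = 0.11), Nr2f6 (0.31, adjusted p = 0.071) and Nr1i2 (−0.32, adjusted p = 0.076) did not. Without the repeat of RX11RU, Esr1 (0.55, adjusted p = 0.047) and Rarb (0.57, adjusted p = 0.033) passed as well. Nr2f6 (0.25, adjusted p = 0.21) and Nr1i2 (−0.25, adjusted p = 0.24) again did not. Hnf4a and Esrrg did not pass against nephritic mice (0.34, adjusted p = 0.13, and 0.31, adjusted p = 0.082). Hnf4a in remission, at 710, 778 and 1017 CPM, did not pass against young mice either (−0.31, SE 0.19, adjusted p = 0.19), whereas Esrrg fell by 0.37 (adjusted p = 0.042), a call lost with the run as a covariate (−0.28, adjusted p = 0.37).

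Other members were below the young level in remission. Hnf4g was at 3.79, 5.43 and 8.12 CPM beside 6.84, 8.69 and 12.3 CPM in young mice, with 7 of 8 below the young range, and fell by 0.72 (SE 0.16, adjusted p = 0.00063). Nr1h4, at 44.97, 65.3 and 90.6 CPM beside 69.6, 106 and 147 CPM, fell by 0.66 (SE 0.14, adjusted p = 0.00026). Against nephritic mice neither passed (Hnf4g −0.25, adjusted p = 0.21, and Nr1h4 −0.07, adjusted p = 0.70). Nr1i2 fell by 0.54 (adjusted p = 0.00011). With the run as a covariate Hnf4g (−0.71, adjusted p = 0.016) and Nr1i2 (−0.51, adjusted p = 0.0066) passed and Nr1h4 did not (−0.48, adjusted p = 0.054), and without the repeat of RX11RU Hnf4g did not either (−0.64, adjusted p = 0.054).

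Each NR4A receptor was lower in remission in 1 of the contrasts, and none kept its call with the run as a covariate. Nr4a1 was at 16.2, 30.7 and 53.1 CPM beside 11.6, 78.2 and 175 CPM in young and 16.6, 36.9 and 112 CPM in nephritic mice. It fell by 1.49 (SE 0.42, adjusted p = 0.0052) against young mice, with 8 of 8 remission mice below the young median, and changed by −0.53 (adjusted p = 0.28) against nephritic mice. Nr4a2 fell by 1.13 (SE 0.28, adjusted p = 0.0018) against young mice, at 1.46, 2.16 and 3.72 CPM beside 2.19, 4.04 and 9.74 CPM. Nr4a3 fell by 1.34 (SE 0.38, adjusted p = 0.0062) against nephritic mice, at 0.397, 1.07 and 2.31 CPM beside 0.999, 2.14 and 5.18 CPM. With the run as a covariate these were −1.47 (adjusted p = 0.083) for Nr4a1, −0.63 (adjusted p = 0.31) for Nr4a2 and −0.32 (adjusted p = 0.71) for Nr4a3. In the other contrast Nr4a2 against nephritic mice was at −0.41 (0.083 with the run as a covariate). Nr4a3 against young mice was at −0.86 (0.095 with the run as a covariate), and none of these passed. Among the young mice of these times ZT0RU, ZT12RL, ZT12LU and ZT120 held adrenal RNA. Changes of the NR4A receptors in remission without those libraries are not given here.

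Nr1i3 was at 0, 0.246 and 0.308 CPM in remission beside 0.0941, 0.507 and 0.952 CPM in nephritic and 0.112, 0.533 and 2.16 CPM in young mice. It fell by 1.32 (SE 0.53, adjusted p = 0.049) and by 1.90 (SE 0.54, adjusted p = 0.0056). The remission libraries also held little liver RNA, with 5.51 to 15.1 CPM of Alb beside 20.4 to 656 CPM (median 50.1) in young and 2.26 to 3078 CPM (median 129) in nephritic mice of these times, and without the liver library RX10LU Nr1i3 was at −1.19 (adjusted p = 0.088) against nephritic mice. Pparg rose by 0.54 (SE 0.22) against young mice with an adjusted p of 0.0497, and Rarg (0.34) and Rara (0.27) rose as well, at 0.64, 0.11 and −0.06 with the run as a covariate, none of which passed (adjusted p = 0.20, 0.71 and 0.81).

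**Figure D5:**
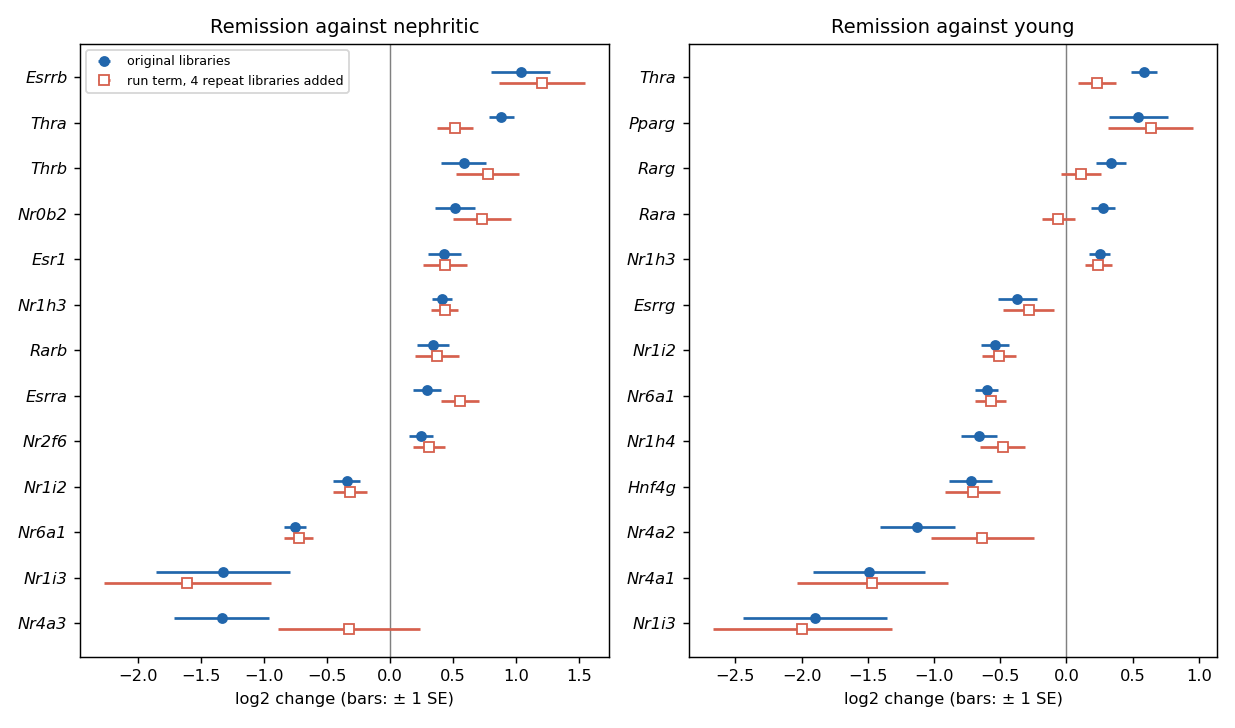
Log2 change with bars of 1 standard error for the members that passed in remission against nephritic mice (left) and against young mice (right), for the original libraries (filled circles) and with a term for the run estimated from 4 repeat libraries (open squares). With the run term Esrrb stands at 1.21 and Nr6a1 at −0.73 on the left. Thra moves from 0.88 to 0.51 on the left and from 0.59 to 0.23 on the right. Without the repeat of RX11RU, a fit not drawn here, Thra was at 0.75 and 0.42.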

How the data were processed

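Polyadenylated RNA of perfused whole kidney from female NZB/W F1 mice was sequenced. The authors deposited 1 table of raw read counts per gene symbol for each library, without normalization. HISAT and mm10 are named in the submitters' processing notes, while the study's methods describe a Burrows Wheeler alignment with counting of uniquely aligned exon reads, and the counting tool, annotation and use of strand are not given in the sources used here. Of 69 libraries 65 were original and 4 were repeats, which entered only the run alternatives. Groups came from the diagnosis and time labels, and each library was 1 mouse as far as the labels say. p-values therefore measure the spread between these mice, with the close pair RX12LU and RX11RL taken as separate mice.

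Counts were fitted in R 4.3.3 with edgeR 4.0.16 (TMM, quasi-likelihood F test, total of at least 100 counts in the fit, Benjamini-Hochberg threshold 0.05). Nephritic against young mice was fitted with time point and set, time points within each group with set, the difference in daily pattern by group by time point terms, and remission on ZT0 and ZT12 mice. CPM used TMM over all libraries, and cosine amplitudes and the Lcn2 relation used log2 CPM with a prior count of 2. The scripts were tested on simulated data. At these depths (13311278 to 48075977 counts per library) the scarcest members, Rorb and Nr5a2, rest on few reads.

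Alternatives were other size factors, DESeq2 1.42.0, limma 3.58.1, no filter, no set term, single sets, cosine terms, other sample choices, a run covariate with and without a block on mouse, and leaving out each mouse. Members and lists were chosen with earlier results of these data known. Full values were given for the 12 largest changes, the 6 smallest p over time in young mice, every member past the test of daily pattern, the 6 largest remission changes and Nr4a1, Nr4a2, Nr4a3, Hnf4a, Esrrg, Pparg and Thrb, and up to 4 genes per list were named. Exon lengths came from a GRCm38 annotation and promoters from RefSeq. The count of motif copies and the values of further members were chosen after their values were seen. Some genes of the lists are not reported here by name.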

Additional observations from a re-analysis of the deposited data

Results flagged for a closer look

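Single mice stood apart from the others in 13 of 164 groups of 4 to 10 mice tested by Dixon's criterion, and chance flags about 1 in 20 groups. Young and nephritic mice were grouped by time point, and the 8 remission mice of ZT0 and ZT12 formed 1 group. In young mice these were Nr1i3 (20.6 CPM) and Nr0b2 (9.47 CPM) at ZT8, both in the liver library ZT8LU, Pgr at ZT4 (1.14 CPM in ZT4RU), Esrrb at ZT8 (49.5 CPM in ZT8RU), Ppard at ZT16 (39.4 CPM in ZT16LU) and, both in ZT20LU, Pgr (2.12 CPM) and Rxrb (63.8 CPM) at ZT20. In nephritic mice they were Nr1h4 at ZT0 (84.7 CPM in CRS60), Ppard (25.6 CPM in RX1OLL) and Nr4a1 (71.7 CPM in RX11LU) at ZT4 and Pparg at ZT12 (12.1 CPM in HIL5RU). Among the 8 remission mice Esrrg was lowest in s14 (41.1 CPM) and Nr4a2 highest in s1 (3.72 CPM).

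The daily pattern differed between young and nephritic mice for Ppard (adjusted p = 0.0035), Thra (0.0047), Nr1i3 (0.029), Pgr (0.029), Rxrb (0.034), Nr0b2 (0.043) and Nr4a1 (0.048) by the group by time point terms in edgeR. Without ZT4RU Pgr did not pass (adjusted p = 0.059), without the 4 liver libraries Ppard and Thra passed and the other 5 did not, and without the 9 adrenal libraries Nr4a1 and Rxrb passed and the other 5, with Ppard at 0.052 and Thra at 0.058, did not.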

How the results depend on the processing

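Counts of members past the threshold mostly stayed within 1.5 times of those reported. The settings on liver and adrenal RNA, Set 1 alone, the bridge without RX11RU, the block on mouse and the limma fit on Lcn2 were chosen after seeing the data. Without the adrenal libraries 5 members rose in nephritic mice, as did 4995 of 17323 genes. Over time in young mice, where ZT16LU alone was left at ZT16, 13 members passed, beside 3921 of 16079 genes. The difference in daily pattern passed for 2 members without the adrenal libraries, 2 without the liver libraries and 0 with cosine terms, which also left 4 members over time in nephritic mice. Over all genes these counts were 726 of 17323, 385 of 17436, 121 of 17521 and 362 of 16872. Fitting only the groups compared gave 5 members higher in remission than in nephritic mice, beside 2387 of 16344 genes. With the run covariate 2 were lower than in nephritic mice and 0 higher and 4 lower than in young mice, and without the repeat of RX11RU 2, 0 and 2. Over all genes these were 2413, 1166 and 1176 of 16941, and 2241, 796 and 897 of 16919. With the run covariate and a replicate block on mouse in limma, where the libraries of a mouse correlated at 0.71, 9 members were higher and 4 lower than in nephritic mice and 0 higher and 5 lower than in young mice. Directions turned for Nr2f6 in Set 1 alone (0.16) and, in nephritic against young mice, Nr4a1 at ZT0 and ZT12 alone (−0.95) and in Set 1 alone (−2.10). With the run covariate, with and without the repeat of RX11RU, they turned for Nr4a2 against nephritic mice (0.083 and 0.081) and, against young mice, for Rara (−0.062 and −0.11) and Thrb (0.019 and 0.028, and 0.059 in a fit of those groups only), and for Nr4a3 (0.095, with all repeats). Under the block on mouse they also turned for Nr4a2 (0.19), Rara (−0.076) and Nr4a3 (0.069). Members not called in the reported fit that turned and passed in Set 1 alone were Rxrb (from −0.06 to 0.24, adjusted p = 0.0072) and Nr1h2 (from −0.0033 to 0.31, adjusted p = 0.0013). The causes were not tested.

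Leaving out 1 mouse at a time gave 2 to 5 members higher and 19 to 21 lower in nephritic mice, 17 to 23 over time in young and 9 to 13 in nephritic mice, 3 to 10 for the daily pattern, 6 to 10 higher and 3 to 4 lower in remission than in nephritic mice, and 3 to 5 higher and 7 to 9 lower than in young mice. The 5 came without HIL5LL or RX10RL, the 3 higher than in young mice without s14, and for the daily pattern 3 came without ZT4RU. Calls close to the threshold were lost in many of these fits, that of Nr4a1 for the daily pattern in 39 and of Nr0b2 in 35 of 57, and in remission those of Nr1i3 against nephritic mice in 24 and of Pparg against young mice in 26 of 35. Of 1020 values of single members under the other settings 854 kept direction and side of the threshold, 143 lost the call, 9 gained one and 14 reversed. Between young and nephritic mice no paired analysis was possible because the labels name different mice in these groups.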

Other observations

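The lists around the receptors also varied over the day. Of all genes 39.8% of 16521 passed over time points in young and 21.6% of 16872 in nephritic mice. The difference in daily pattern passed for 6.27% of 17521 genes. Without the 4 liver libraries 5114 of 16365 genes passed over time in young mice and 385 of 17436 for the pattern. In young mice all 12 targets of PPAR-delta and PPAR-gamma passed the edgeR test over time points, with 9 of 10 oxysterol receptor targets, 11 of 13 targets of the farnesoid X, pregnane X and constitutive androstane receptors, 9 of 12 HNF4 targets, 8 of 10 thyroid hormone genes, 11 of 20 coregulators, 10 of 16 retinoid genes, 8 of 14 immediate early genes and 6 of 12 targets of the estrogen-related receptors. In nephritic mice the counts were 4 of 12, 2 of 10, 7 of 13, 2 of 12, 3 of 10, 9 of 20, 3 of 15, 3 of 14 and 0 of 12 in the same order. All 7 adipocyte, 7 adrenal and 8 liver markers also passed over time in young mice, and 7, 7 and 7 in nephritic mice. Without the 4 liver libraries 11 of 12 targets of PPAR-delta and PPAR-gamma, 7 of 10 oxysterol receptor targets and 6 of 13 targets of the farnesoid X, pregnane X and constitutive androstane receptors passed in young mice, where 0 of 8 liver markers did in edgeR. Without the 9 adrenal libraries 11 of 12, 6 of 10 and 9 of 13 passed. The test of the difference in daily pattern passed for 6 of 14 targets of the farnesoid X, pregnane X and constitutive androstane receptors and for at most 1 gene of each other list, beside all 8 liver markers. Without the 4 liver libraries it passed for 0 of these 14 targets and 1 of 8 liver markers in edgeR. Both sets of counts without libraries were added after seeing the data.

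In remission 7 of 12 targets of the estrogen-related receptors were higher than in nephritic mice (median log2 change 0.30) and 2 of 12 were lower than in young mice (−0.12). Of the HNF4 targets 2 of 12 were higher than in nephritic mice (0.38) and 6 of 12 lower than in young mice (−0.75). Of the immediate early genes 4 of 14 were lower than in nephritic mice (−0.55), and 5 were lower and 2 higher than in young mice (−0.50). The remission libraries came from a separate run, and its part in these counts was not tested.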
